A study of Homo sapiens with 12 samples.

Results

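The 9 genes described here encode the enzymes of the urea cycle and 2 mitochondrial enzymes that release ammonia from glutamine and glutamate. They were chosen by name: CPS1, OTC, ASS1, ASL, ARG1, ARG2, NAGS, GLS2 and GLUD1. All 9 were listed among the 22963 gene names of the expression table. The study examined EGR1, a zinc finger transcription factor, in human hepatocellular carcinoma (HCC) cells, and the expression table covers 12 libraries, 3 biological replicates in each of 4 groups. Expression was given as FPKM, the fragments per kilobase of transcript, scaled to the mapped fragments of the library, so that levels of different genes in 1 library can be set side by side. Library making included a nuclease step that digests abundant cDNA and can compress high levels, which limits such comparisons for abundant genes.

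Both lines, PLC/PRF5 and MHCC97H, are established HCC lines and were grown in the same serum-supplemented DMEM. The first group was PLC/PRF5 cells with an empty vector (labelled control), and the second was PLC/PRF5 cells with EGR1 overexpression from a lentiviral plasmid driven by the CMV promoter. The third group was parental MHCC97H cells (labelled WT). The fourth was MHCC97H cells labelled EGR1 knockout, made with a lentiviral CRISPR/Cas9 plasmid and expanded from single clones. Which clone was sequenced is not given in the sources used here, and what is particular to a clone and what follows from the knockout cannot be told apart. Where nothing says that replicates were separate clones, p-values measure the spread between libraries of 1 stable line.

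The urea cycle converts toxic ammonia into urea and is run in full by the hepatocytes of the liver. NAGS makes N-acetylglutamate, the activator of CPS1, which joins ammonia and bicarbonate into carbamoyl phosphate in the mitochondrion, and OTC passes this on to ornithine to give citrulline. In the cytosol ASS1 and ASL convert citrulline to arginine, and ARG1 splits arginine into urea and ornithine. ARG2 is the mitochondrial arginase found mainly outside the liver, GLS2 is the liver-type glutaminase, and GLUD1 is glutamate dehydrogenase.

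The targeted gene was examined first. EGR1 was listed at 1.97, 1.43 and 2.03 FPKM in the vector libraries and at 56.3, 50.2 and 52.2 FPKM with EGR1 overexpression, a 29.3-fold higher mean. In MHCC97H cells EGR1 was at 20.2, 23.1 and 21.2 FPKM in the parental libraries and at 35.2, 50.3 and 32.9 FPKM in the libraries labelled knockout. The EGR1 mRNA therefore went against the knockout label by direction (limma log2 change 0.83 ± 0.15 SE, adjusted p = 0.00126, and 0.42 with adjusted p = 0.0608 after a GC and length correction). The level of an mRNA does not measure its protein, and these libraries are called the libraries labelled knockout throughout.

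Hepatocyte markers were also compared, as these enzymes belong to that cell type. Of 12 hepatocyte markers, 11 had a mean of at least 1 FPKM in each PLC/PRF5 group, 6 in parental MHCC97H cells and 8 in the libraries labelled knockout. Their summed FPKM ranged from 2002 to 2162 with the vector, from 2937 to 3914 with EGR1 overexpression, from 46.7 to 54.2 in parental cells and, in those labelled knockout, from 94.1 to 97.8. SERPINA1 was the largest part of the PLC/PRF5 sums, with means of 1372 FPKM with the vector and 2580 FPKM with EGR1 overexpression. TF (112 and 81.6 FPKM), AHSG and TTR had lower means with EGR1 overexpression, and the other hepatocyte markers had higher means. ALB, encoding albumin, had a mean of 116 FPKM with the vector and 0.885 FPKM in parental MHCC97H cells, whereas APOH, encoding an apolipoprotein, had a mean of 14.0 FPKM with the vector, was above that in parental cells, and had a mean of 23.7 FPKM in the libraries labelled knockout. Of the epithelial markers, KRT8 and KRT18 had group means of 517 FPKM or more in every group. EPCAM had group means of at most 0.0504 FPKM. CDH1 had means of at most 0.0236 FPKM in the PLC/PRF5 groups. In parental MHCC97H cells and the libraries labelled knockout, the CDH1 means were 2.39 and 3.57 FPKM. The 5 fibroblast and stellate cell markers were below 1 FPKM on average everywhere. Of the blood and immune cell markers, PTPRC and CD3E had group means of at most 0.0391 FPKM, and HBB of at most 0.115 FPKM. CD68, however, had group means between 28.5 and 53.8 FPKM. LYZ had means of 142 FPKM with the vector and 110 FPKM with EGR1 overexpression, and of at most 0.0800 FPKM in the MHCC97H groups. In bulk RNA of a cell line, fewer cells that hold a transcript and less of it per cell cannot be told apart.

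EGR1 binds GC-rich DNA, and the promoters of the 5 members with a mean of at least 1 FPKM over the 12 libraries are shown for that reason. The windows run from 250 bases before to 30 bases after a RefSeq start (GRCh38.p14), each read 5′ to 3′ on the strand of its gene, at chr2:210593105-210593384 (CPS1, plus strand), chr9:130444457-130444736 (ASS1, plus), chr7:66075569-66075848 (ASL, plus), chr14:67619670-67619949 (ARG2, plus) and chr10:87094814-87095093 (GLUD1, minus). The CPS1 window lies inside the gene as annotated (chr2:210477682-210679107). It therefore shows an internal start and not the first base of the CPS1 gene. The ASS1 window ends before the ASS1 gene as annotated (chr9:130444929-130501274). Capitals mark matches, on either strand, to short words known from promoters. The EGR1 core was searched as GCGNGGGCG, and the C/EBP-like word as TTGCNNAA. The GC box, to which factors of the SP family bind, was searched as GGGCGG. The CCAAT box, the site of the factor NF-Y, was searched by the letters of its name. The TATA box, bound by the general transcription machinery, was searched as TATAAA.
CPS1: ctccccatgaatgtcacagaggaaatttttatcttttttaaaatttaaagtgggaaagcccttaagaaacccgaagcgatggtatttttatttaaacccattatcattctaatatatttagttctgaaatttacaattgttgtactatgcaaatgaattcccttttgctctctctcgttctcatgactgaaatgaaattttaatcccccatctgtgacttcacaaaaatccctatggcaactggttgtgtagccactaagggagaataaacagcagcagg
ASS1: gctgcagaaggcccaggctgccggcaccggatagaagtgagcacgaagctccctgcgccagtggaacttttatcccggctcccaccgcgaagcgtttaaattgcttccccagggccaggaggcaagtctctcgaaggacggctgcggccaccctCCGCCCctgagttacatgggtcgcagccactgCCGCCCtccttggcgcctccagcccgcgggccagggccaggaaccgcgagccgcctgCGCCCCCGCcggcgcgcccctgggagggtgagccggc
ASL: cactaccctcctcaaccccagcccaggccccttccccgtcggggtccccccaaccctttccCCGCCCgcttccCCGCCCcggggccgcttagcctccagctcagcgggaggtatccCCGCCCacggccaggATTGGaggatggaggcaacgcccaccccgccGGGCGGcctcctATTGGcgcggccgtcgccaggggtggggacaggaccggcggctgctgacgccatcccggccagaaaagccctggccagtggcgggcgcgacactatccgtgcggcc
ARG2: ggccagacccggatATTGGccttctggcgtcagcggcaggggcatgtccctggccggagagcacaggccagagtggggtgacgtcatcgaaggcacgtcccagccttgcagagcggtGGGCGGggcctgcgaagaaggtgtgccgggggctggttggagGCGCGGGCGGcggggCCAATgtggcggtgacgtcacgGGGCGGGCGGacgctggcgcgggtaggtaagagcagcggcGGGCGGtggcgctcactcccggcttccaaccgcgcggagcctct
GLUD1: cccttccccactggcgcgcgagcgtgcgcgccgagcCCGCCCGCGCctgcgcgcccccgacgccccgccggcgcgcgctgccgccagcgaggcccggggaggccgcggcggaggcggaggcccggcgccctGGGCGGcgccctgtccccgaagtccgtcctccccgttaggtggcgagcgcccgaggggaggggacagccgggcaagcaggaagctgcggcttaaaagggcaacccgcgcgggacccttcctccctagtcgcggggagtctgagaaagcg

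The CPS1 window held 3 CpG pairs and 36.7% G or C in the full 300 bases of its RefSeq entry, and none of these words. This holds for the internal CPS1 start, and the first start of the gene was not searched. The other windows held 29 (ASS1), 30 (ASL), 31 (ARG2) and 47 (GLUD1) CpG pairs, against a median of 14 over 35116 RefSeq promoters of the same length. The EGR1 core was found once each in ASS1 (from position -7), ARG2 (from -91, overlapping a GC box) and GLUD1 (from -213, overlapping a GC box), which makes 3 of 9 members, and in 9.43% of all promoters. Positions are counted from the RefSeq start, which for ASS1 lies before the gene as annotated. ASL held 4 GC boxes and a pair of CCAAT boxes, but no EGR1 core. GC boxes were present in 6 of 9 members and 45.0% of all promoters, and CCAAT boxes in 2 of 9 members and 34.6% of all promoters. The TATA box was found in OTC and ARG1, and in 11.5% of all promoters, and the C/EBP-like word in none of the 9 members and 10.5% of all promoters. These are matches of letters in a window and say nothing of binding.

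The 2 lines differed first in the entry step of the cycle. CPS1 (chr2:210477682-210679107, GRCh38) was listed at 485, 365 and 486 FPKM in the vector libraries and at 402, 379.6 and 371 FPKM with EGR1 overexpression. In parental MHCC97H cells it was listed at 0, 0.0115 and 0.0202 FPKM, and in the libraries labelled knockout it was listed at 0 in all 3. CPS1 ranked between 103 and 152 among all gene names in the PLC/PRF5 libraries. Its partner enzymes of the mitochondrion were low in all libraries: NAGS (chr17:44004546-44009063) was at 0.828, 0.985 and 1.26 FPKM with the vector and 0.275, 0.777 and 0.759 FPKM with EGR1 overexpression. In MHCC97H cells NAGS was at 0.197, 0.132 and 0.184 FPKM in parental libraries and 0.175, 0.147 and 0.118 FPKM in those labelled knockout, and these last groups overlapped. OTC (chrX:38352545-38421450) was listed at 0.0245 FPKM in vector replicate 1 and at 0 in the other 11 libraries, so the step that uses the product of CPS1 had almost no transcript in the cells where CPS1 was abundant.

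**Figure D1:**
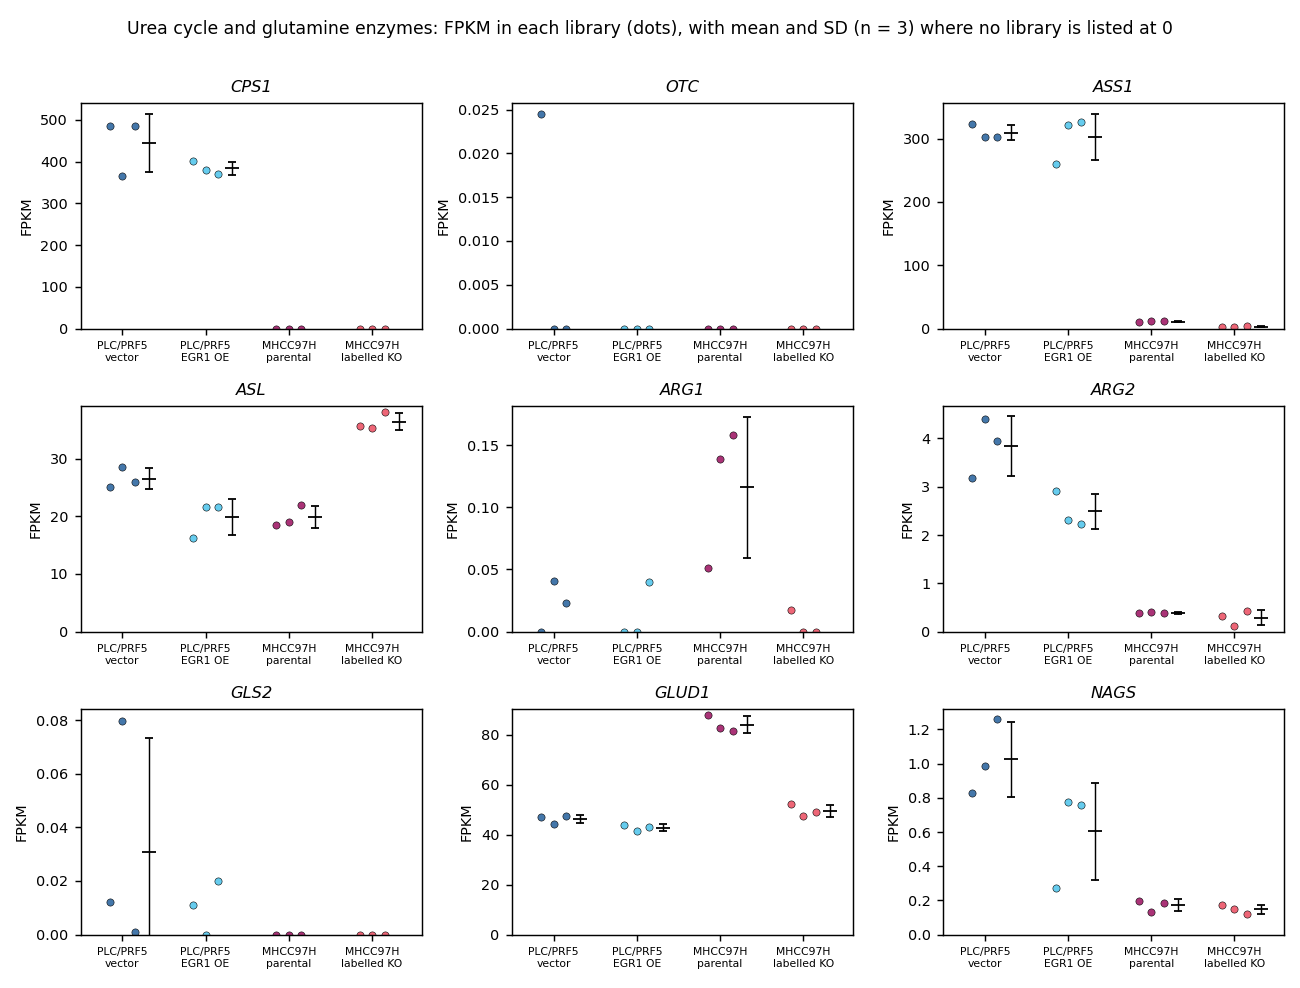
FPKM of each of the 9 members (vertical axes, linear and starting at 0, with a scale per gene) in the 12 libraries (dots) of the 4 groups, with the group mean and SD (n = 3) where no library of the group is listed at 0. CPS1 and ASS1 lie at 260.4 FPKM or more in all 6 PLC/PRF5 libraries and at 11.9 FPKM or less in all 6 MHCC97H libraries, and ASL and GLUD1 are present in all 4 groups.

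In the cytosol, ASS1 (chr9:130444929-130501274) makes argininosuccinate. ASS1 was at 324, 302 and 303 FPKM with the vector and 260.4, 322 and 326 FPKM with EGR1 overexpression. In MHCC97H cells it was at 9.71, 11.5 and 11.9 FPKM in parental libraries and at 2.85, 2.76 and 3.38 FPKM in the libraries labelled knockout. The 2 PLC/PRF5 groups overlapped, and each MHCC97H group stood apart from every other group.

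ASL (chr7:66075798-66093558), which splits argininosuccinate into arginine and fumarate, was at 25.1, 28.6 and 26.0 FPKM with the vector, 16.3, 21.7 and 21.7 FPKM with EGR1 overexpression, 18.5, 19.0 and 22.0 FPKM in parental MHCC97H cells and 35.7, 35.4 and 38.1 FPKM in the libraries labelled knockout. The libraries labelled knockout were the highest and the vector libraries came next, while the EGR1 overexpression and parental groups overlapped. ASL shares 23.6% of the 75-base words of its transcripts with AC068533.4, which overlaps it on the same strand and was listed at up to 0.524 FPKM. How reads were divided between them was not given, so that the ASL level is uncertain to that extent.

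The last step of the cycle was nearly missing. ARG1 (chr6:131573144-131584332), the liver arginase, was listed at 0, 0.0409 and 0.0229 FPKM with the vector, and at 0, 0 and 0.0396 FPKM with EGR1 overexpression. It was at 0.0515, 0.139 and 0.158 FPKM in parental MHCC97H cells and at 0.0176, 0 and 0 FPKM in the libraries labelled knockout. ARG2 (chr14:67619798-67651720) was the more abundant arginase, at 3.18, 4.39 and 3.95 FPKM with the vector and 2.91, 2.32 and 2.23 FPKM with EGR1 overexpression. In MHCC97H cells ARG2 was at 0.375, 0.398 and 0.379 FPKM in parental libraries and 0.320, 0.112 and 0.423 FPKM in those labelled knockout, groups that overlapped.

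Of the glutamine and glutamate enzymes, GLS2 (chr12:56470944-56488414) was listed at 0.0120, 0.0796 and 0.000918 FPKM with the vector, at 0.0110, 0 and 0.0199 FPKM with EGR1 overexpression, and at 0 in all 6 MHCC97H libraries. GLUD1 (chr10:87050486-87094866), the glutamate dehydrogenase that releases ammonia from glutamate, was at 47.0, 44.5 and 47.5 FPKM with the vector, 44.1, 41.5 and 43.0 FPKM with EGR1 overexpression, 88.1, 82.9 and 81.5 FPKM in parental MHCC97H cells and 52.2, 47.3 and 49.0 FPKM in the libraries labelled knockout. The parental libraries were the highest, and the libraries labelled knockout overlapped the vector libraries. GLUD1 shares 18.3% of its 75-base words with GLUD2, a copy of the gene without introns on chromosome X that had a mean of 19.9 ± 1.4 FPKM (SD, n = 3) with the vector and 0.234 ± 0.057 FPKM (SD, n = 3) in parental cells, so both values depend on how shared reads were assigned.

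As a sum, the 9 members came to between 725 and 885 FPKM in the PLC/PRF5 libraries, between 114 and 117 FPKM in parental MHCC97H cells and between 85.7 and 91.3 FPKM in the libraries labelled knockout. CPS1 took 53.3% ± 3.7 (SD, n = 3) of this sum and ASS1 took 37.3% ± 2.8 with the vector. In parental MHCC97H cells GLUD1 took 72.7% ± 2.6 and ASL 17.1% ± 1.6, and in the libraries labelled knockout GLUD1 took 55.4% ± 1.7 and ASL 40.8% ± 1.4. Without CPS1 and ASS1 the sums lay closer together, between 63.5 and 78.7 FPKM in PLC/PRF5 libraries and between 83.0 and 107 FPKM in MHCC97H libraries. The nuclease step can compress high levels, so the shares of CPS1 and ASS1 in PLC/PRF5 cells carry that limit.

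The unmodified lines were compared to give the level from which each EGR1 comparison starts. Between parental MHCC97H and vector PLC/PRF5 cells, ASS1 was 28.1-fold lower in MHCC97H and GLUD1 was 1.82-fold higher, on group means of FPKM. Of the 9 members, 5 reached a mean of 1 FPKM over the 6 libraries and were tested. All 5 passed an adjusted p of 0.05 with groups that did not overlap, 1 higher and 4 lower, where 79.8% of all 12046 genes tested passed and 81.0% did not overlap. The share among the members is read against these high backgrounds, and CPS1 and ARG2 passed the filter only through the vector group, so their calls are no support. On the log2(FPKM + 1) scale, the limma change was -4.69 ± 0.09 (SE) for ASS1 (adjusted p = 1.00e-09), 0.85 ± 0.07 for GLUD1 (adjusted p = 7.32e-06) and -0.40 ± 0.10 for ASL (adjusted p = 0.00420). The direction of ASL turned with the GC and length correction (0.12, adjusted p = 0.117). The tests compare 2 lines and everything that goes with them, such as the hepatocyte markers above, and these cannot be told apart.

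EGR1 overexpression was compared with the vector to ask which enzymes move with added EGR1 in PLC/PRF5 cells. ASL, the argininosuccinate lyase, was lower with EGR1 in all 3 libraries, by 1.34-fold on group means of FPKM. ARG2, the mitochondrial arginase, was lower in all 3 libraries by 1.54-fold. ASS1, the most abundant cytosolic member in these cells, had means of 310 ± 12 FPKM (SD, n = 3) with the vector and 303 ± 37 FPKM with EGR1, and these groups overlapped, as did those of CPS1 (446 ± 69 and 384 ± 16 FPKM). Of 9 members 5 were tested, of which 0 were higher and 2 were lower by limma at an adjusted p of 0.05, where 29.6% of all 11671 genes tested passed. At an unadjusted p under 0.05 the same 2 passed, and none of the 5 was higher.

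On the log2(FPKM + 1) scale the changes with EGR1 overexpression were -0.41 ± 0.12 (SE) for ASL (limma adjusted p = 0.0336), -0.47 ± 0.13 for ARG2 (adjusted p = 0.0251), -0.20 ± 0.13 for CPS1 (adjusted p = 0.256), -0.11 ± 0.08 for GLUD1 (adjusted p = 0.308) and -0.04 ± 0.11 for ASS1 (adjusted p = 0.811). The groups did not overlap for 3 of the 5 (ASL, ARG2 and GLUD1), against 47.7% of all genes tested. The median change of the 5 was -0.20 beside 0.09 over all genes tested. The ASL and ARG2 calls are weak ones, as neither passed without the filter on low values (adjusted p = 0.0750 and 0.0700), and both were lost without vector replicate 2 (adjusted p = 0.0728 and 0.0543), vector replicate 3 (0.0827 and 0.0775) or EGR1 replicate 2 (0.0504 and 0.0873). Of the 3 other libraries, leaving out vector replicate 1 or EGR1 replicate 1 lost the ASL call (0.0557 and 0.0509), and leaving out EGR1 replicate 3 lost the ARG2 call (0.0893). CPS1 passed as lower with the GC and length correction (-0.36, adjusted p = 0.0335) and without vector replicate 2 (-0.34, adjusted p = 0.0423), the replicate with the lowest CPS1 level of its group.

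In MHCC97H cells 3 members were tested, and all 3 differed between the libraries labelled knockout and the parental libraries. ASS1 was 3.68-fold lower in the libraries labelled knockout, GLUD1 was 1.70-fold lower, and ASL was 1.83-fold higher, on group means of FPKM. The enzymes of 2 successive steps, ASS1 and ASL, thus differed in opposite directions. On the log2(FPKM + 1) scale the limma changes were -1.59 ± 0.12 (SE) for ASS1 (adjusted p = 2.21e-05), 0.85 ± 0.09 for ASL (adjusted p = 1.07e-04) and -0.75 ± 0.08 for GLUD1 (adjusted p = 9.84e-05).

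The 3 members passed with groups that did not overlap, 1 higher and 2 lower, where 66.3% of all 11577 genes tested passed and 71.8% did not overlap. Of the remaining 6 members, CPS1, OTC and GLS2 were listed at 0 in all libraries labelled knockout, and ARG1, ARG2 and NAGS had means below 1 FPKM in both groups. Across all genes tested the change in this comparison followed the GC content of the transcript (Spearman's rho 0.75 over 10806 genes, which are not independent replicates), and the ASL and ASS1 transcripts, at 59.4% and 57.4% GC, lie above the median of 48.3% while GLUD1 lies at 46.4%. With the GC and length correction ASL was higher by 0.21 (adjusted p = 0.0121), ASS1 was lower by a change of -2.17 (adjusted p = 1.14e-06) and GLUD1 changed by -0.71 (adjusted p = 6.41e-05), so that the size of the ASL difference depended on this step, and the part of GC content in it was not tested. EGR1 mRNA was higher in these same libraries, which has to be kept in mind wherever a direction is read from the label.

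Whether the 2 EGR1 comparisons differed was tested as the change with EGR1 overexpression minus the change in the libraries labelled knockout, in a fit of all 12 libraries. Of the 5 members tested, 3 passed, where 63.8% of all 12090 genes tested passed. The difference was 1.55 ± 0.15 (SE) on the log2 scale for ASS1 (adjusted p = 5.71e-06), -1.26 ± 0.16 for ASL (adjusted p = 3.64e-05) and 0.64 ± 0.10 for GLUD1 (adjusted p = 1.41e-04). It was -0.19 ± 0.14 for CPS1 (adjusted p = 0.264) and -0.36 ± 0.17 for ARG2 (adjusted p = 0.0817). ASL was lower with added EGR1 and higher in the libraries labelled knockout, whereas ASS1 and GLUD1 passed as changed in MHCC97H cells alone. Across all genes tested this difference followed the GC content of the transcript (Spearman's rho -0.72 over 11248 genes, which are not independent replicates). The change with EGR1 overexpression also did (rho -0.44 over 10829 genes). With the GC and length correction the difference was -0.60 for ASL (adjusted p = 3.87e-04), and the part of GC content in it was not tested. CPS1 and ARG2 passed the filter of this fit only through the PLC/PRF5 groups and were below 1 FPKM in both MHCC97H groups, so nothing is read from their differences. The perturbation and the line change together in this contrast, so they cannot be told apart.

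Within each library, the ratio of successive or competing enzymes was computed as the log2 ratio of FPKM + 1. Ratios with an abundant gene carry the limit of the nuclease step given above. ASS1 to ASL was 3.64, 3.36 and 3.49 with the vector, 3.92, 3.83 and 3.85 with EGR1 overexpression, -0.86, -0.68 and -0.83 in parental MHCC97H cells and -3.26, -3.27 and -3.16 in the libraries labelled knockout. ASS1 thus exceeded ASL in every PLC/PRF5 library and was below it in every MHCC97H library. The 4 groups did not overlap with one another, and the difference was 0.37 with EGR1 overexpression and -2.44 in the libraries labelled knockout.

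CPS1 to CAD, the multienzyme protein that makes carbamoyl phosphate for pyrimidines in the cytosol, had a mean log2 ratio of 4.18 ± 0.06 (SD, n = 3) with the vector and 3.82 ± 0.12 with EGR1 overexpression. It was -3.75 ± 0.11 in parental MHCC97H cells and -4.59 ± 0.05 in the libraries labelled knockout, where CPS1 is listed at 0 and the ratio follows CAD alone. ARG1 to ARG2 was -2.24 ± 0.16, -1.78 ± 0.17, -0.31 ± 0.07 and -0.35 ± 0.18, in the order vector, EGR1 overexpression, parental and labelled knockout, and followed ARG2 because ARG1 was near 0.

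The exact permutation test (2-sided, 3 libraries against 3) gave p = 0.1, the smallest value this design allows, for each of these 3 ratios in each comparison, with an adjusted value of 0.107 over the 15 ratio comparisons computed. The exception was ARG1 to ARG2 between the libraries labelled knockout and parental, with an exact p of 0.9. No ratio could therefore pass 0.05.

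Genes that supply, move or consume the nitrogen handled by the members were examined next. GLUL, glutamine synthetase, was at 28.1, 24.4 and 27.7 FPKM with the vector and 23.5, 23.9 and 24.1 FPKM with EGR1 overexpression (-0.16, adjusted p = 0.193), and passed as lower with the GC and length correction (-0.31, adjusted p = 0.00838). In the libraries labelled knockout GLUL was at 35.2, 33.3 and 34.1 FPKM against 16.8, 17.9 and 20.2 FPKM in parental libraries, a rise of 0.87 (adjusted p = 9.29e-05). CAD rose by 0.83 there (adjusted p = 1.27e-04), from 12.6 ± 1.2 to 23.2 ± 0.9 FPKM (SD, n = 3), and by 0.45 with the GC and length correction.

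The mitochondrial ornithine carrier SLC25A15, which brings ornithine to OTC, was lower with EGR1 overexpression. It was at 26.7, 24.6 and 26.7 FPKM with the vector and 15.6, 14.5 and 15.9 FPKM with EGR1 (-0.72 on the log2 scale, adjusted p = 7.10e-04), and at 3.48 ± 0.21 and 3.32 ± 0.04 FPKM in parental and knockout-labelled libraries (-0.05, adjusted p = 0.666). With the GC and length correction SLC25A15 passed as lower in the libraries labelled knockout (-0.31, adjusted p = 0.0185). The aspartate and glutamate carrier SLC25A13, which feeds ASS1 with aspartate, changed by -0.01 (adjusted p = 0.928) and by -0.21 (adjusted p = 0.0551) in the 2 comparisons. OAT, ornithine aminotransferase, fell by 0.30 with EGR1 overexpression (adjusted p = 0.0497, under 0.05 in 5 of 15 alternatives, and -0.47 with the GC and length correction) and OAT fell by 1.25 in the libraries labelled knockout (adjusted p = 1.41e-04). Its means were 71.4 ± 8.8, 57.4 ± 1.0, 23.0 ± 3.6 and 9.08 ± 1.58 FPKM (SD, n = 3) in the order vector, EGR1 overexpression, parental and labelled knockout.

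ODC1, which makes putrescine from ornithine, was abundant in PLC/PRF5 cells at 322 ± 7 FPKM (SD, n = 3) with the vector and 377 ± 15 FPKM with EGR1 overexpression (0.23, adjusted p = 0.0851). In MHCC97H cells ODC1 was at 51.1 ± 0.5 and 44.8 ± 3.2 FPKM (-0.19, adjusted p = 0.0731). Both ODC1 changes passed with the GC and length correction (0.25, adjusted p = 0.0138, and -0.43, adjusted p = 6.20e-04). ASNS, which spends glutamine to make asparagine, fell by 0.27 with EGR1 overexpression (adjusted p = 0.0312) and by 1.00 in the libraries labelled knockout (adjusted p = 4.57e-05), from 53.4 ± 0.9 to 26.2 ± 2.4 FPKM. Of the plasma membrane carriers, SLC7A5, which exchanges glutamine for leucine, rose by 0.63 with EGR1 overexpression (adjusted p = 0.00363) and fell by 0.54 in the libraries labelled knockout (adjusted p = 0.00134), where it was at -1.10 with the GC and length correction. The glutamine importer SLC1A5 changed by 0.03 with EGR1 overexpression (adjusted p = 0.795), and by 0.58 in the libraries labelled knockout (adjusted p = 8.05e-04), where its direction turned with the GC and length correction (-0.03, adjusted p = 0.678).

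**Figure D2:**
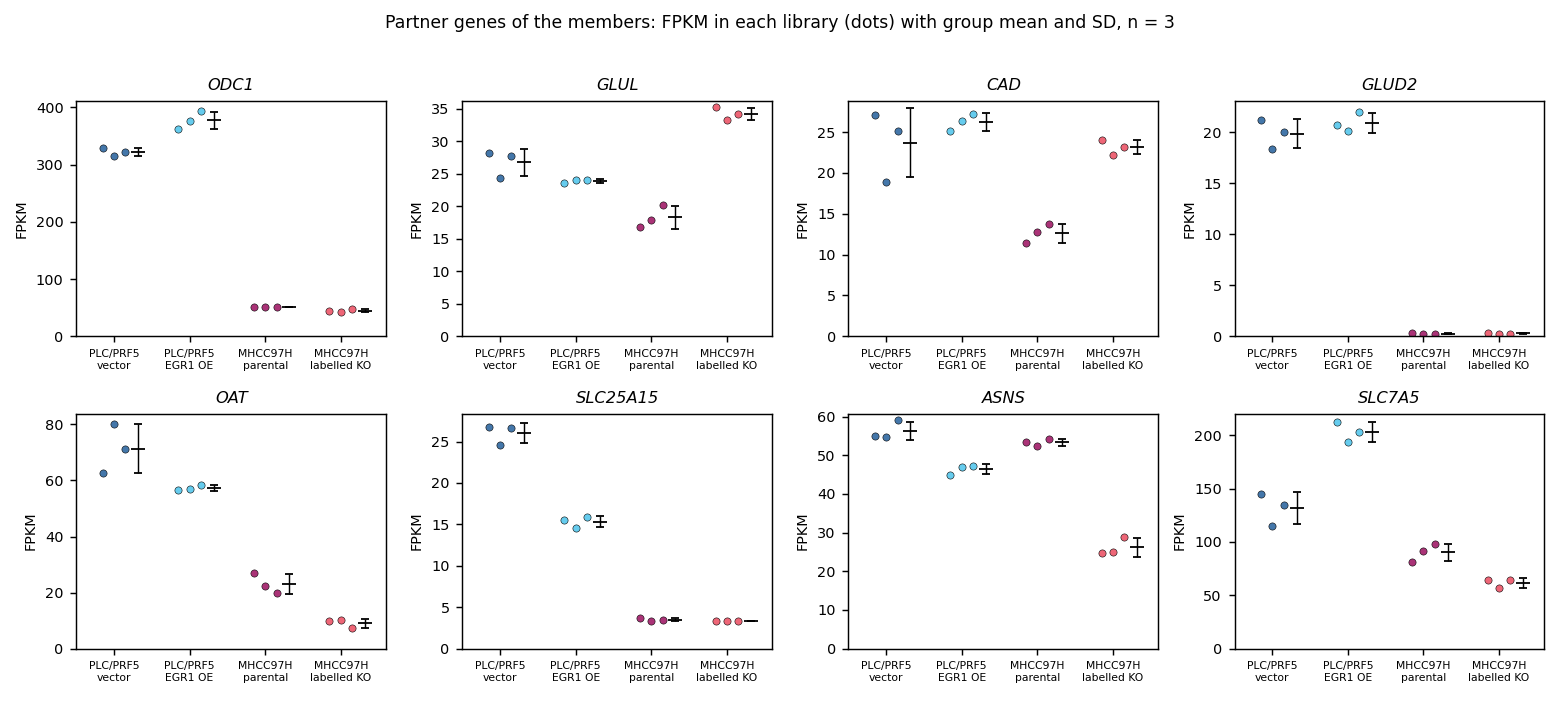
FPKM of 8 partner genes (vertical axes, linear and starting at 0, with a scale per gene) in the 12 libraries (dots) of the 4 groups, with mean and SD (n = 3). SLC25A15 is lower with EGR1 overexpression, and GLUD2 is at 0.298 FPKM or less in all 6 MHCC97H libraries.

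In parental MHCC97H against vector PLC/PRF5 cells GLUD2 was 84.8-fold lower, SLC25A15 was 7.47-fold lower, and ODC1 was 6.29-fold lower on group means of FPKM. Their limma changes on the log2(FPKM + 1) scale were -4.08 (adjusted p = 3.20e-09), -2.59 (2.36e-08) and -2.63 (3.96e-09). GLUD2 had a mean of 0.234 FPKM in parental cells and passed the filter only through the vector group, so its call is no support. OAT (-1.60), CAD (-0.85), SLC7A5 (-0.54) and GLUL (-0.52) were lower and SLC25A13 (1.04) was higher, with adjusted p of 0.00146 or less. ASNS (-0.07, adjusted p = 0.360) and SLC1A5 (0.08, adjusted p = 0.391) did not pass the threshold as deposited, and SLC1A5 passed with the GC and length correction (0.44, adjusted p = 3.10e-05). The corrected changes were -0.86 for GLUL and -0.26 for SLC7A5.

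The wider pathway was counted over 5 lists. Over all genes tested 19.2% passed as higher and 10.4% as lower with EGR1 overexpression, against which the counts are read. With EGR1 overexpression, 0 of 6 tested urea cycle partners (mitochondrial carriers, carbonic anhydrases and SIRT5, a deacylase that acts on CPS1) passed as higher and 1 as lower. Of 17 glutamine and ammonia genes 3 were higher and 4 lower, and 4 higher and 8 lower with the GC and length correction. Of 10 amino acid carriers 4 were higher and 0 lower, and 4 and 2 with the correction. Of 23 genes of arginine, ornithine, proline and polyamines 2 were higher and 6 lower, and 4 and 7 with the correction. Of 9 transcription factors known at urea cycle promoters in liver 1 was higher and 2 lower, and 0 and 1 with the correction. The medians of the 5 lists were -0.04, -0.08, 0.26, -0.05 and 0.02 beside 0.09 over all genes tested.

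SLC7A11, the cystine and glutamate exchanger, rose by 1.02 with EGR1 overexpression, from 1.44, 1.86 and 1.99 to 4.98, 4.41 and 4.33 FPKM (limma adjusted p = 5.92e-04), and by 0.49 with the GC and length correction. SLC3A2, the heavy chain shared by SLC7A11 and SLC7A5, rose by 0.80, from 182, 180.1 and 170.5 to 294, 307 and 328 FPKM (adjusted p = 5.92e-04). GFPT2 rose by 0.71 and GPT2, which passes amino groups between glutamate and alanine, fell by 0.59 (adjusted p = 0.00827 and 0.00225). GFPT2 had a vector mean of 0.995 FPKM and passed the filter only through the EGR1 overexpression group, so its call is no support. PPAT rose by 0.51 as deposited (adjusted p = 0.0119) but not with the GC and length correction (0.03, adjusted p = 0.750). GMPS and CTPS2, which spend glutamine on nucleotides, fell by 0.33 and 0.30, and GMPS was at -0.64 with the correction. GAMT and DDAH1 rose by 0.81 and 0.52 (DDAH1 by 0.31 with the correction), while the proline oxidation enzymes ALDH4A1 and PRODH fell by 0.63 and 0.56 and the spermidine synthase SRM fell by 0.38. Of the transcription factors, FOXA1 fell by 0.45, and the changes of NR3C1 (0.49) and CEBPA (-0.36) passed as deposited but not with the correction (adjusted p = 0.176 and 0.0818).

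In the libraries labelled knockout, where 34.8% of all genes tested passed as higher and 31.5% as lower, 1 of 5 tested urea cycle partners was higher and 0 lower as deposited, and 0 and 2 with the GC and length correction or 1 and 1 with a same FPKM total. Of 16 glutamine and ammonia genes 5 were higher and 8 lower, 3 and 7 with the correction, and 3 and 9 with a same FPKM total. Of 11 carriers 4 were higher and 5 lower, and 2 and 4 with the correction. Of 23 genes of arginine, ornithine, proline and polyamines 13 were higher and 6 lower, and 6 and 8 with the correction, so the balance of that list depended on it. Of 8 transcription factors 4 were higher and 1 lower, and 5 and 1 with the correction. The medians were -0.05, -0.23, -0.39, 0.36 and 0.38 beside 0.02 over all genes tested.

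Of the carriers, SLC38A2 and SLC38A1 import neutral amino acids such as glutamine. SLC38A2 fell by 1.40, from 188, 161 and 134 to 64.5, 67.6 and 49.5 FPKM (limma adjusted p = 9.00e-05), and SLC38A1 fell by 0.87 (adjusted p = 8.92e-04). With the GC and length correction these changes were -0.80 for SLC38A2 and -0.34 for SLC38A1. DDAH2 rose by 1.28, from 11.8, 12.2 and 11.6 to 29.3, 31.6 and 29.6 FPKM (adjusted p = 1.65e-05), and SLC7A2, an arginine importer, rose by 0.92 (adjusted p = 5.71e-04), which became 0.58 for DDAH2 and 1.46 for SLC7A2 with the correction. NOS3 rose by 0.92, SLC38A7 by 0.71 and GFPT2 by 0.48, and with the correction by 0.33 for NOS3 and 0.25 for SLC38A7, while GFPT2 no longer passed (0.24, adjusted p = 0.122). SLC7A2 and NOS3 had parental means of 0.928 and 0.912 FPKM. Both passed the filter only through the libraries labelled knockout, so their calls are no support. SAT1 and PRODH fell by 0.76 and 0.61, and PRODH was at -1.11 with the correction. The factors CEBPA and CEBPB rose by 0.93 and 0.91 as deposited, and by 0.25 and 0.16 with the correction. SLC25A22 (0.41), SLC3A2 (0.54) and NR3C1 (-0.35) passed as deposited but their direction turned with the correction (-0.24, -0.02 and 0.28), and PPAT (-0.94) and SLC7A11 (-0.98) no longer passed with it (adjusted p = 0.0759 and 0.172).

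For comparison of the lines, where 38.8% of all genes tested passed as higher and 40.9% as lower, parental MHCC97H against vector PLC/PRF5 cells gave 1 higher and 3 lower of 6 urea cycle partners (2 and 3 with the GC and length correction), 6 and 8 of 17 glutamine and ammonia genes, 3 and 4 of 11 carriers (5 and 4 with the correction), 5 and 16 of 23 genes of arginine, ornithine, proline and polyamines, and 2 and 5 of 9 transcription factors. HNF4A, a liver factor known to bind the promoters of several urea cycle genes, had means of 45.6 FPKM with the vector and 9.64 FPKM in parental cells (limma log2 change -2.12 ± 0.19 SE, n = 3 per group, adjusted p = 1.09e-05).

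Each member was also matched with the genes of the most similar pattern over the 12 libraries, by the root mean square difference of log2(FPKM + 1) centred on each gene's own mean, among 12090 genes. The nearest genes were BASP1 (0.20), VTN (0.39) and MAGEA4 (0.58) for CPS1, and MT1X (0.35) and GCH1 (0.47) for ASS1. For ASL they were EDEM2 (0.07), HEBP1 (0.08) and ARMCX6 (0.10). For ARG2 they were TENT5A (0.10), KLB (0.11) and RRAGA (0.12), and for GLUD1 they were AZIN1, ZCCHC14 and CHD1L (each 0.09). BASP1 had means of 553 and 469 FPKM in the 2 PLC/PRF5 groups and was listed at 0 in all 6 MHCC97H libraries. EDEM2, the closest to ASL, had means of 20.9 FPKM with the vector, 16.9 FPKM in parental cells and 31.7 FPKM in the libraries labelled knockout.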

How the data were processed

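RNA-seq of 12 libraries was analysed, 3 in each of the 4 groups taken from the sample labels. Library making used oligo(dT) beads and a duplex-specific nuclease step, which digests abundant cDNA and can compress high levels. The authors deposited 1 table of FPKM per gene and library. The submitters' processing notes name StringTie and hg38 (GRCh38), and the aligner, annotation and filters are not given in the sources used here. FPKM give no read counts, so the depth is unknown and no counting error or detection limit could be given. FPKM totals ranged from 376335 to 437652 between libraries.

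From the deposited FPKM, log2(FPKM + 1) values were tested with limma 3.58.1 in R 4.3.3, with an intensity trend and without covariates, over genes with a mean of at least 1 FPKM in the libraries of the fit. Fold changes on that scale understate the change of low genes. Tests were 2-sided, adjusted by the Benjamini-Hochberg method over all genes tested, with a threshold of 0.05. Ratios were compared by an exact permutation test, which cannot go below 0.1 with 3 libraries against 3. The fits were tested on simulated data.

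In the GC and length correction, splines (5 degrees of freedom each) of both properties, taken from GENCODE release 29 transcripts, were subtracted. It removes biological change that follows GC content too. Coordinates are from the same annotation, and promoters from RefSeq GRCh38.p14 (all 9 members matched). The first listed promoter entry of each gene was used, so other starts of a gene were not searched.

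The members and gene lists were chosen with earlier results of these data known. The genes named were the 9 members, EGR1, their partner genes, up to 3 genes a direction with the largest change past the threshold and no overlap per list and EGR1 comparison, and the 3 genes of the most similar pattern for each member. Some genes that this rule names are not reported here. HNF4A, AC068533.4 and the markers were named outside this rule. Alternatives were a pseudocount of 0.1, no filter, a common FPKM total, quantile normalization, no trend, 1 fit of all libraries, the replicate block, the GC and length correction with and without that block, and leaving out each library in turn.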

Additional observations from a re-analysis of the deposited data

Results flagged for a closer look

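The change with EGR1 overexpression in PLC/PRF5 cells and the change in the libraries labelled knockout in MHCC97H cells differed for 3 members by the limma test of the difference itself, on the log2(FPKM + 1) scale. For ASS1 the difference was 1.55 (adjusted p = 5.71e-06), from a change of -0.04 in PLC/PRF5 and -1.59 in MHCC97H cells. For ASL it was -1.26 (adjusted p = 3.64e-05), from -0.41 and 0.85, and -0.60 with the GC and length correction. For GLUD1 it was 0.64 (adjusted p = 1.41e-04), from -0.11 and -0.75. The lines, the perturbations and the direction of EGR1 mRNA in the libraries labelled knockout go together with these differences, and cannot be told apart.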

How the results depend on the processing

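Depth is unknown from FPKM, so no difference among members near 0 (OTC, ARG1, GLS2, NAGS) could be judged, and 3 libraries a group limit the precision. In MHCC97H cells the counts of members past the threshold stayed at 3 when any library was left out, and at 5 between the lines, and that of the difference lay between 3 and 4. The EGR1 overexpression count of 2 became 0 with no filter beyond an FPKM above 0, and lay between 0 and 1 with a library left out. Over all genes, 3457 were called with EGR1 overexpression, but 1919 without EGR1 replicate 2, 2208 without EGR1 replicate 3 and 2246 without vector replicate 3. The count was 2349 without vector replicate 1 and 3146 without EGR1 replicate 1, and rose to 4007 without vector replicate 2.

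Some directions turned, among them changes that had passed the threshold as deposited (ASL between the lines, SLC1A5 in the libraries labelled knockout and in the difference of changes). Among the list genes, SLC25A22 (-0.24), SLC3A2 (-0.02) and NR3C1 (0.28) turned with the GC and length correction in the libraries labelled knockout. Of the members and partner genes, with that correction, with and without the block, the turned values were 0.0130 for ASS1 with EGR1 overexpression, -0.0273 for SLC1A5 in the libraries labelled knockout, 0.116 for ASL and 0.0220 for ASNS between the lines, and -0.0268 for SLC25A13 and 0.0909 for SLC1A5 in the difference of changes. With a same FPKM total ASNS was at 0.0338 between the lines. With quantile normalization ASNS was at 0.163 there, SLC25A15 at 0.0645 in the libraries labelled knockout and GLUD2 at -0.0859 in the difference, where GLUD2 was at -0.0992 with a pseudocount of 0.1. With a library left out, the EGR1 overexpression changes ranged from -0.0954 to 0.0661 for ASS1 and from -0.0360 to 0.0140 for SLC25A13, and the GLUD2 difference from -0.0263 to 0.0704. The causes were not tested. A same FPKM total moved the median of all genes in the libraries labelled knockout from 0.02 to -0.11.

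In deviations from the group mean, same-numbered libraries correlated at -0.13, 0.14 and -0.08 in PLC/PRF5 and at 0.03, 0.03 and 0.47 in MHCC97H cells. Not every library correlated best with its own number. Deviations within a group of 3 libraries depend on each other, so this check cannot settle whether the replicate numbers pair the libraries. With the replicate block 3253 genes and 2 members were called with EGR1 overexpression, and the block changed no count of members.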
